A study of Mus musculus with 21 samples.

Results

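Galnt6 and the genes around it in mucin-type O-glycosylation were examined in RNA-seq of mouse embryonic stem cells. The 10 genes were Galnt1, Galnt2, Galnt3, Galnt4, Galnt6, Galnt7, Galnt10, Galnt11, Galnt12 and C1galt1, of 22512 genes in the count table. Galnt6 was chosen by its fold changes in Ago2KO against W and in Ago2KO_empty against T6B_MUT (the groups edited in Ago2 and their controls), where it was among the largest increases, and the other 9 genes serve as its comparison. The Galnt6 values in those 2 contrasts are therefore given as a description, with no test.

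The study holds 21 libraries in 7 groups of 3, in 2 experiments. All cells came from one line of 129S6/SvEvTac background that carries the yGlob GFP_5xT71BS reporter and a stably transfected FLAG-Cas9::T2A::Blasticidin. Experiment 1 compared that line without further editing (W) with lines labelled Trim71-/- (Trim71KO) and Ago2-/- (Ago2KO), none of them transfected with a further plasmid. In Experiment 2 the unedited line received pCIP FH-T6B_WT::mCherry (T6B_WT) or pCIP FH-T6B_MUT::mCherry (T6B_MUT), and the edited lines received an empty plasmid (Trim71KO_empty and Ago2KO_empty). The labels do not say whether an edited line is 1 clone, and the unedited line with an empty plasmid is not among the groups, so T6B_MUT served as the control in Experiment 2. Genotype and plasmid thus differ together wherever an edited line of Experiment 2 is compared with T6B_MUT or T6B_WT. The experiments also differ in transfection, so experiment and transfection cannot be told apart.

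Mucin-type O-glycosylation starts in the Golgi, where a polypeptide N-acetylgalactosaminyltransferase (a Galnt gene product) adds GalNAc to serine or threonine. C1galt1 then adds galactose to make the core 1 structure, which other enzymes branch or cap with sialic acid. Ago2 is an Argonaute protein, which carries microRNAs to the 3′ UTR of their target mRNAs. T6B is a peptide from the Argonaute partner TNRC6B that competes for Argonaute binding. Trim71 is an RNA-binding ubiquitin ligase of early embryos and a known target of let-7.

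Library totals ran from 29.6 to 50.8 M counts in Experiment 1 and from 33.9 to 57.9 M in Experiment 2. Ago2 had 142 ± 9.62 CPM (counts scaled to library size) in W and 41.9 ± 1.94 in Ago2KO (mean ± SD, n = 3 in every group). In the libraries labelled Ago2KO_empty, Ago2 was at 87.4, 167 and 45.6 CPM, against 112 to 143 in T6B_MUT, so replicate 2 goes against its label. Trim71 was at 608 CPM in W and 429 in Trim71KO, and at 492 in T6B_MUT and 402 in Trim71KO_empty. Where the edits lie is not given in the labels, so an RNA level that remains does not check the protein. All 8 embryonic stem cell markers were detected, with a summed level between 3910 and 5268 CPM in every library. That sum was 4892 to 5268 CPM in Trim71KO against 4144 to 4378 in W. In Trim71KO_empty it was 4850 to 5074 against 4208 to 4361 in T6B_MUT. In each of these pairs 5 of the 8 markers were called higher and 1 lower. The summed level of 8 primitive endoderm markers, none of them below 0.1 CPM on average in any group, was 51.5 to 52.6 CPM in W, 6.95 to 7.30 in Trim71KO and 12.5 to 14.5 in Ago2KO. In Experiment 2 it was 31.3 to 31.8 in T6B_MUT, 25.3 to 28.5 in T6B_WT, 10.8 to 12.5 in Trim71KO_empty and 18.7 to 27.9 in Ago2KO_empty. In bulk RNA, fewer cells of a type and less RNA per cell cannot be told apart.

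Because the study edits or blocks the microRNA machinery, the 3′ UTRs of the 10 genes were searched, on the sense strand of the transcript, for 7-base matches to microRNA bases 2 to 8. The first search covered 4 seed families known from embryonic stem cells and early development. The miR-290 family reads AGCACTT, present in 15.5% of 20998 genes with an annotated 3′ UTR. The miR-17 family reads GCACTTT (12.4%), let-7 reads CTACCTC (9.52%) and miR-15/16 reads TGCTGCT (21.2%). AGCACTT and GCACTTT overlap in 6 of their letters. The 1540-base 3′ UTR of Galnt6 held none of these 4 matches. A further 12 families were then added after that result was seen. Their matches were GTGCAAT (miR-92a, 6.94% of genes), TTGCACT (miR-130a, 10.5%), TTTGCAC (miR-19b, 2523 of the 20998 genes), TGCACTG (miR-148a, 13.4%), TACTTGA (miR-26a, 10.2%) and TGTTTAC (miR-30, 14.4%). The others were CAGTATT (miR-200b, 14.0%), TTGCCAA (miR-182, 11.4%), GTGCCAT (miR-183, 9.38%), GTGCCAA (miR-96, 8.38%), ATAAGCT (miR-21a, 7.56%) and ATGCTGC (miR-103, 11.9%). Several of them overlap one another, such as those of miR-19b, miR-130a and miR-148a. Of these, Galnt6 held 1 match, TTTGCAC, and Galnt7 held 2 copies of TGTTTAC close together. The sites of Galnt6 and Galnt7 are shown because these genes rose most among the 10 with T6B_WT, and that of C1galt1 because it joins AGCACTT and GCACTTT. The miRNA lines have the seed in capitals and the site lines the match.
mmu-miR-19b-3p: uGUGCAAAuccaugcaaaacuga
Galnt6 site: atcctatgtcaTTTGCACagttatctatg
mmu-miR-30a-5p: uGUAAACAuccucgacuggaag
Galnt7 first site: tctgcagtgacTGTTTACaaaactgctct
Galnt7 second site: taaactctagaTGTTTACatcgttttttg
mmu-miR-291a-3p: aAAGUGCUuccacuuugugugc
C1galt1 first site: agcttgtttaaAGCACTTttaaaattaat
The shown stretch of Galnt6 lies at chr15:100692961-100692989 (minus strand, GRCm38), and its match starts 375 bases after the stop codon. The Galnt7 stretches lie at chr8:57525910-57525938 and chr8:57525876-57525904 (minus strand), with matches 187 and 221 bases after the stop codon. The C1galt1 stretch lies at chr6:7872163-7872191 (plus strand), with its match 917 bases after the stop codon. The miRNA sequences are from RefSeq (GRCm38.p6) and the UTRs from GENCODE M21.

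AGCACTT, the match of miR-291a-3p, occurred in Galnt4, Galnt10 and C1galt1, and GCACTTT in Galnt1 and C1galt1. The miR-30 match also occurred in Galnt1, Galnt2, Galnt3 and Galnt4, so 5 of the 9 transferases held it. Those 5 had 3′ UTRs of 1404 to 3096 bases, beside a median of 1016 over all genes, and length was not allowed for. Galnt11, with a 3′ UTR of 537 bases, held none of the 16 families' matches. A match is a description of the letters in the annotated 3′ UTR, and binding was not measured.

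**Figure D1:**
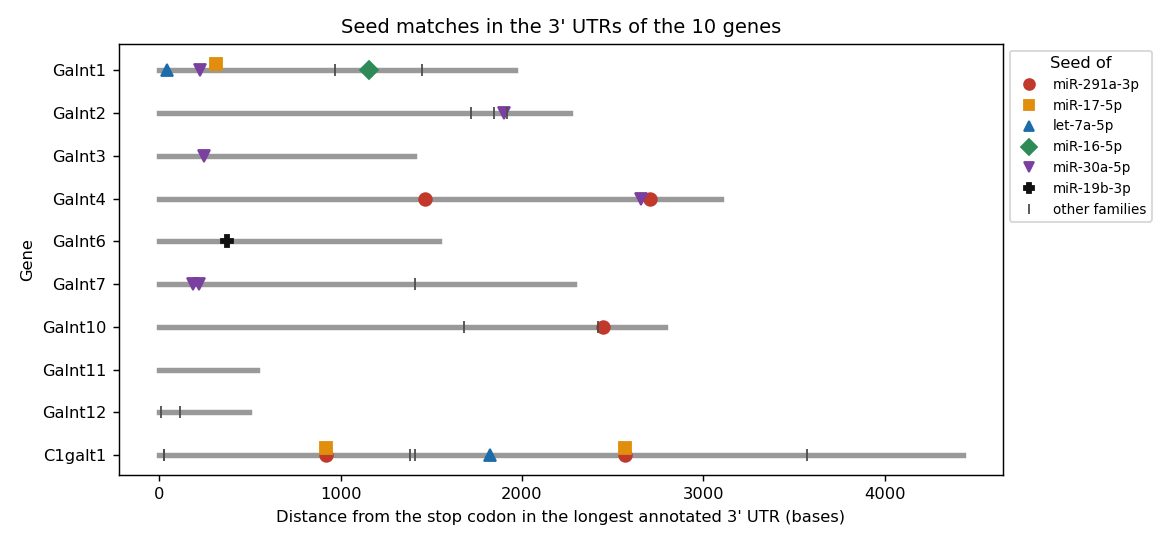
Positions of 7-base seed matches (symbols) along the longest annotated 3′ UTR (grey lines) of the 10 genes, in bases after the stop codon. Galnt6 carries a single symbol at 375 bases (miR-19b-3p), Galnt7 a close miR-30 pair at 187 and 221, and C1galt1 the longest 3′ UTR, at 4430 bases; squares are raised slightly so that overlapping miR-17 and miR-291a-3p matches can be seen.

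Galnt6 (ENSMUSG00000037280, chr15:100691813-100729376 on GRCm38, minus strand) encodes a transferase whose closest paralog is Galnt3 and whose known substrates include fibronectin. In W its level was 6.84, 7.19 and 5.80 CPM, and in Trim71KO 4.04, 4.11 and 4.24. In Ago2KO it was 27.4, 25.7 and 26.8 CPM. Every Ago2KO library thus lay above every W library, and every Trim71KO library below.

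In Experiment 2, Galnt6 was at 9.79, 9.35 and 9.23 CPM in T6B_MUT and at 30.5, 29.7 and 26.0 in T6B_WT. It was at 11.9, 10.04 and 10.05 in Trim71KO_empty and at 48.9, 45.1 and 52.6 in Ago2KO_empty. The 3 libraries labelled Ago2KO_empty were the highest of all 21, including replicate 2, in which Ago2 itself was at 167 CPM. From the highest to the lowest mean, the groups ran Ago2KO_empty, T6B_WT, Ago2KO, Trim71KO_empty, T6B_MUT, W and Trim71KO. T6B_WT and Ago2KO overlapped, and no other neighbours in that order did.

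**Figure D2:**
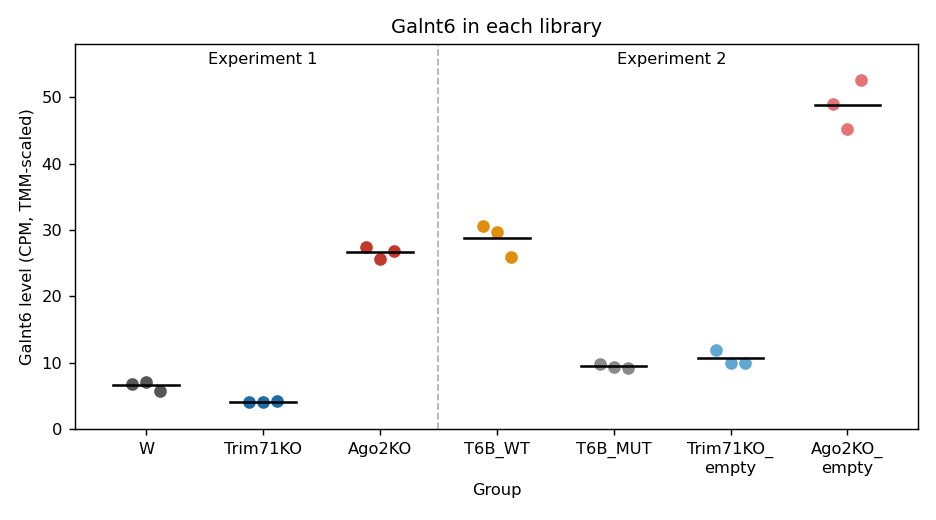
Galnt6 level in CPM (vertical axis) in each of the 21 libraries (points) by group (horizontal axis), with the group mean as a black line; a dashed line separates the experiments. The Ago2KO, T6B_WT and Ago2KO_empty libraries all lie above 25 CPM and all others below 12.

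T6B_WT against T6B_MUT asks what the intact peptide does to these mRNAs in unedited cells. Galnt6 and Galnt7 rose and Galnt1, one of the broadly expressed starters, rose slightly, while the other 7 genes did not pass the test. The threshold throughout was an adjusted p under 0.05 from edgeR's quasi-likelihood test with Benjamini-Hochberg adjustment over all genes tested. By this rule 3 of the 10 genes were called higher and 0 lower, where 16% of 21505 genes were called (9.29% higher and 6.69% lower). The median log2 fold change was 0.10 for the 10 genes and 0.01 for all genes. The groups did not overlap for 7 of the 10 genes, against 39.3% of all genes.

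Galnt6 rose 3.04-fold (log2 fold change 1.60, SE 0.09, adjusted p = 6.42e-10), and the groups did not overlap. The T6B_MUT libraries are also the controls of a contrast that chose Galnt6. This p, and the place of Galnt6 among the called genes, are therefore not free of that choice. Galnt7, which prefers peptides that already carry GalNAc, was at 19.3, 19.0 and 20.7 CPM in T6B_WT and at 11.2, 10.6 and 12.8 in T6B_MUT. Its rise was 1.70-fold (log2 0.76, SE 0.09, adjusted p = 8.97e-06). The lowest T6B_WT library of Galnt7 lay well above the highest T6B_MUT library.

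Galnt1 was at 76.2 to 85.9 CPM in T6B_WT and at 65.8 to 72.7 in T6B_MUT. The difference was small, 0.23 in log2 units (SE 0.06), with an adjusted p of 0.0204. That call was lost when T6B_WT replicate 2 (adjusted p = 0.0710), T6B_WT replicate 3 (0.146), T6B_MUT replicate 1 (0.120) or T6B_MUT replicate 2 (0.136) was left out. Galnt3, the closest paralog of Galnt6 and the enzyme that protects the phosphate hormone FGF23, was at 1.25 ± 0.145 CPM in T6B_WT and 1.57 ± 0.0774 in T6B_MUT (log2 −0.34, SE 0.18, adjusted p = 0.234). Galnt10, a further enzyme that acts on glycosylated peptides, had a log2 fold change of −0.24 (adjusted p = 0.0831, and 0.0107 in a fit of only the groups compared). C1galt1 was at 17.9 ± 1.38 and 20.03 ± 1.94 CPM (log2 −0.16, adjusted p = 0.255), and its groups overlapped.

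In these libraries the 6 listed markers of 2-cell-like cells, among them Zscan4c, all rose with T6B_WT, and their summed level was 72.4 to 73.8 CPM against 15.02 to 16.4 in T6B_MUT. It was 52.6 to 62.5 CPM in Ago2KO_empty. In Ago2KO, where Galnt6 was high, that sum was 2.28 to 2.85 CPM, below the 11 to 12.2 of W, and 2 of the 6 markers averaged under 0.1 CPM (Usp17la and Tcstv1). The sum of 4 early mesoderm markers was higher with T6B_WT, 9.70 to 10.4 CPM against 5.67 to 6.45 in T6B_MUT, and also in Ago2KO, 13.2 to 15.6 against 7.42 to 8 in W, and in Ago2KO_empty, 9.25 to 11.8. Of these 4, Kdr, a receptor of blood vessel precursors, was the one called with T6B_WT (log2 1.60, SE 0.17), and Kdr and Eomes were called higher in both groups edited in Ago2. The early mesoderm sum was also above T6B_MUT in Trim71KO_empty, at 7.59 to 9.61 CPM with 2 markers called higher. Galnt6 was not called in that group. In Trim71KO the sum was 5.67 to 7.10 CPM, below W. The sum of 5 trophoblast markers was 22.7 to 23.2 CPM with T6B_WT against 17.7 to 18.7, 36.3 to 39.6 in Ago2KO against 27.0 to 31.3, and 22.6 to 24.4 in Ago2KO_empty. Tfap2c was the only trophoblast marker called in these 3 comparisons, by log2 0.35, 0.50 and 0.37, and it made up most of the sum. The part of these 3 marker lists in the Galnt6 result was not tested.

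T6B_MUT was also the control in a contrast that chose Galnt6. T6B_WT was therefore also compared with Trim71KO_empty, a pair in which no library belongs to a contrast that chose it, although genotype and plasmid both differ. In this pair 9 of the 10 genes were called, 4 higher and 5 lower, where 34.2% of all genes were called (17.3% higher and 16.9% lower). The groups did not overlap for these 9 genes, against 46.4% of all genes. Galnt6 was 2.69-fold higher in T6B_WT (log2 1.43, SE 0.09, adjusted p = 9.54e-10), Galnt7 2.06-fold (log2 1.04, SE 0.09), Galnt12 1.69-fold (log2 0.76, SE 0.17) and Galnt1 1.32-fold (log2 0.40, SE 0.07). Lower in T6B_WT were Galnt3 (log2 −0.64), Galnt10 (−0.50), Galnt2 (−0.45), C1galt1 (−0.43) and Galnt4 (−0.38), and Galnt11 differed by 0.02 and was not called. The Galnt3 call was lost without T6B_WT replicate 1 (adjusted p = 0.0507) or Trim71KO_empty replicate 1 (0.0586). Marker sums differed in this pair too: primitive endoderm was at 25.3 to 28.5 CPM in T6B_WT against 10.8 to 12.5, 2-cell-like at 72.4 to 73.8 against 15.7 to 16.8, and trophoblast at 22.7 to 23.2 against 11.1 to 12.7. Their part in these differences between the groups was not tested.

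Editing of Ago2 is described here for the genes other than Galnt6. In Ago2KO against W, Galnt6 was 4.03-fold higher (log2 2.01, SE 0.08), the value on which it was chosen. Of the other 9 genes, 2 were called higher (Galnt7 by log2 0.50, SE 0.09, and Galnt1 by 0.26, SE 0.06) and 1 lower (Galnt3 by log2 −1.08, SE 0.22), where 18.0% of all genes were called (10.2% higher and 7.78% lower). Among the other 9 the groups did not overlap for Galnt1, Galnt3, Galnt7, Galnt10 and Galnt11, against 34.2% of all genes. Galnt3 was at 0.528 to 0.685 CPM in Ago2KO and 1.04 to 1.48 in W, on 16 to 33 counts per library in Ago2KO. Galnt2, Galnt4 and C1galt1 differed by log2 0.01, 0.02 and 0.16 and were not called. Galnt10 passed only without W replicate 1 (log2 −0.22, adjusted p = 0.0466). In the same libraries all 8 primitive endoderm markers fell, with sums of 12.5 to 14.5 CPM against 51.5 to 52.6, and their part in these values was not tested.

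In Ago2KO_empty against T6B_MUT, Galnt6 was 5.17-fold higher (log2 2.37, SE 0.09), again as chosen. Of the other 9 genes, Galnt7 (log2 0.61, SE 0.09) and Galnt1 (0.28, SE 0.06) were called higher and 0 lower, where 28.8% of all genes were called (16.4% higher and 12.4% lower). Among the other 9 the groups did not overlap for Galnt1, Galnt3 and Galnt7, against 42.1% of all genes. Galnt3 differed by log2 −0.27 (SE 0.18) and was not called, and Galnt10 passed only without Ago2KO_empty replicate 3 (log2 −0.35, adjusted p = 0.00198). This comparison shares its T6B_MUT libraries with the T6B_WT comparison, so the fold changes of Galnt6 and Galnt7 in both rest on the same 3 control libraries. Galnt6 was at 45.1 to 52.6 CPM in all 3 libraries labelled Ago2KO_empty, while Ago2 spanned 45.6 to 167.

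**Figure D3:**
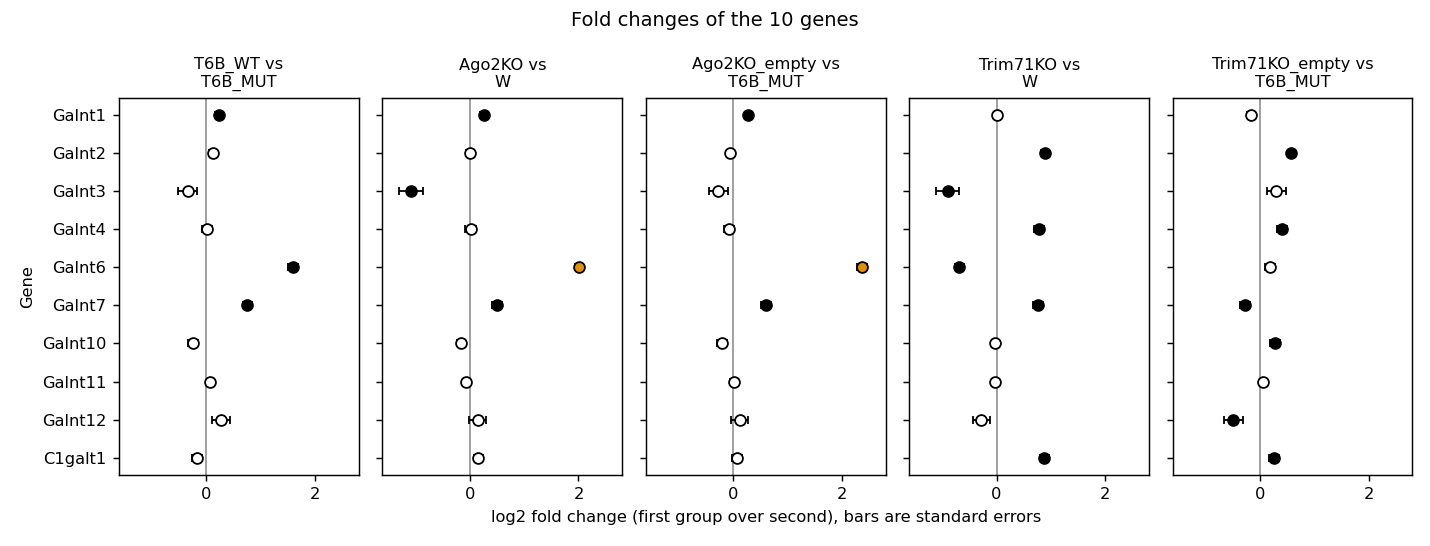
Log2 fold changes (horizontal axis, first group over second) of the 10 genes (vertical axis) in 5 comparisons; bars are standard errors, filled points passed an adjusted p under 0.05, open points did not, and orange points are Galnt6 in the contrasts on which it was chosen. Galnt6 lies at 1.60 in the T6B_WT panel and at −0.68 in the Trim71KO panel, and Galnt7 lies to the right of 0 in all panels except Trim71KO_empty.

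In Trim71KO against W the transferases moved in both directions. C1galt1, Galnt2, Galnt4 and Galnt7 rose and Galnt3 and Galnt6 fell, so 6 of the 10 genes were called, where 32.6% of all genes were called (16.9% higher and 15.6% lower). Galnt6 fell from 6.61 ± 0.722 to 4.13 ± 0.103 CPM, a log2 difference of −0.68 with SE 0.09 and an adjusted p of 7.12e-05. Its W libraries are also the controls of a contrast that chose Galnt6, so this p and the count of 6 are not free of that choice.

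Galnt2, a broadly expressed starter, was at 98.7 to 121 CPM in Trim71KO and at 55.01 to 61.96 in W, a rise of 1.85-fold (log2 0.89, SE 0.07, adjusted p = 7.00e-07). C1galt1, the core 1 galactosyltransferase, rose 1.84-fold from 9.25 ± 0.656 to 17.0 ± 0.720 CPM (log2 0.88, SE 0.08, adjusted p = 1.61e-06). Galnt4 (log2 0.78, SE 0.09) and Galnt7 (log2 0.76, SE 0.09), which act on partly glycosylated peptides, rose 1.72-fold and 1.69-fold, and Galnt3 fell by 0.90 (SE 0.22). For these 6 genes the groups did not overlap, nor did they for Galnt12 (log2 −0.28, adjusted p = 0.207), so 7 of the 10 were separated, against 44.3% of all genes. Galnt1, Galnt10 and Galnt11 had log2 fold changes between −0.02 and 0.01. In the same libraries 7 of 8 primitive endoderm markers fell, and their part in these changes was not tested. Galnt2 and Galnt7 lie on chromosome 8, where the median log2 fold change of 1060 genes was 0.19 and 45.2% were called, beside a median of 0.00 over all genes, and the part of the chromosome in their rise was not tested.

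The same genotype with an empty plasmid, Trim71KO_empty against T6B_MUT, gave smaller log2 values for Galnt2, Galnt4 and C1galt1. Galnt2 rose by log2 0.57 (SE 0.06, adjusted p = 6.23e-07) and Galnt4 by 0.41 (SE 0.09, adjusted p = 0.00283). Galnt10 (0.27) and C1galt1 (0.26) also passed as higher and Galnt12 (−0.49) and Galnt7 (−0.28) as lower, which makes 6 of the 10 genes where 27.8% of all genes were called (14.4% higher and 13.4% lower). Only Galnt2 and Galnt4 were called in each of the 6 fits that left out 1 library, where the count was 2 to 4. It was 2 without T6B_MUT replicate 1 or Trim71KO_empty replicate 1 and 3 without T6B_MUT replicate 2. Galnt6 was at 10.7 ± 1.09 CPM in Trim71KO_empty and 9.46 ± 0.296 in T6B_MUT (log2 0.18, SE 0.09, adjusted p = 0.170). Its groups did not overlap, which held for 9 of the 10 genes and for 45.5% of all genes. In the same pair 6 of 8 primitive endoderm markers fell and 1 rose, with sums of 10.8 to 12.5 CPM against 31.3 to 31.8, and their part was not tested.

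The difference between the effects labelled Trim71-/- in the 2 experiments was tested in a fit of all 21 libraries. Apart from Galnt6, it was called as higher for Galnt2, Galnt7 and C1galt1 and as lower for Galnt3. Over all genes 10.1% were called, 5.01% higher and 5.04% lower. Galnt7 had the largest difference upwards, 1.04 on the log2 scale (SE 0.13, adjusted p = 3.46e-06), and its level rose in Trim71KO and fell in Trim71KO_empty. Galnt3 and Galnt6 differed by −1.20 and −0.85, where W and T6B_MUT are also the controls of the contrasts that chose Galnt6, so its value is a description, and C1galt1 and Galnt2 by 0.62 and 0.32. The Galnt2 difference passed in only 3 of the 12 fits without 1 library, those without W replicate 3 or Trim71KO replicate 1 or 2, and had adjusted p of 0.0505 to 0.140 in the others. The controls differ between the experiments, since W was not transfected and T6B_MUT carried a plasmid. The primitive endoderm and 2-cell-like sums moved as well: the latter was 0.678 to 1.14 CPM in Trim71KO against 11 to 12.2 in W, and 15.7 to 16.8 in Trim71KO_empty against 15.02 to 16.4 in T6B_MUT. Their part in these differences was not tested.

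Levels between genes were compared per length, as RPKM, the CPM divided by the deposited gene length in kilobases. In W, Galnt2 and Galnt1 were the most abundant transferase mRNAs, at 13.7 ± 0.812 and 11.6 ± 0.476 RPKM, followed by Galnt11, which acts on Notch1 and LDL-receptor repeats, at 5.72 ± 0.139. Galnt10, Galnt7, Galnt6, Galnt4 and Galnt12 lay between 3.60 and 1.18 RPKM, and Galnt3 was lowest at 0.304 ± 0.0566. C1galt1 was at 1.52 ± 0.108 RPKM in W and at 3.95 ± 0.233 in Trim71KO_empty, its highest group. Galnt11 varied least, with group means between 5.50 and 6.53 RPKM. Galnt6 had group means from 1.07 to 12.6 RPKM.

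**Figure D4:**
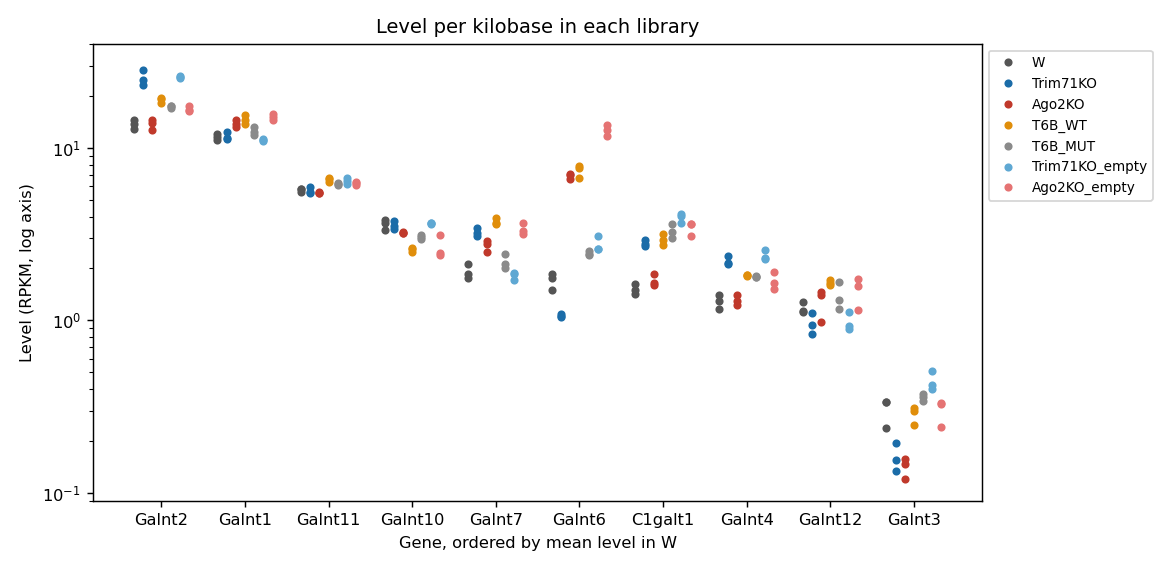
Level per kilobase (RPKM, logarithmic vertical axis) of the 10 genes in each of the 21 libraries (points, coloured by group), ordered by the mean in W. Galnt6 spans the widest range, with group means from 1.07 to 12.6 RPKM, Galnt11 the narrowest, and Galnt3 is the lowest in every group.

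The RPKM of the 9 transferases summed to 41.0 ± 0.450 in W, 53.8 ± 2.95 in Trim71KO and 48.6 ± 0.723 in Ago2KO. In Experiment 2 the sum was 47.2 ± 0.768 in T6B_MUT, 57.6 ± 0.560 in T6B_WT, 55.4 ± 0.716 in Trim71KO_empty and 60.3 ± 2.45 in Ago2KO_empty. Galnt6 made up 4.17% ± 0.490 of the sum in W and 1.99% ± 0.0648 in Trim71KO. Its share was 14.2% ± 0.431 in Ago2KO, 12.9% ± 1.08 in T6B_WT, 5.17% ± 0.199 in T6B_MUT, 4.97% ± 0.441 in Trim71KO_empty and 20.9% ± 0.943 in Ago2KO_empty. It was the sixth of the 9 transferases in W and the third in Ago2KO, T6B_WT and Ago2KO_empty. Without Galnt6 the sum was 39.3 in W and 41.7 in Ago2KO, and 44.8 in T6B_MUT, 50.1 in T6B_WT and 47.6 in Ago2KO_empty. Galnt2 alone made up 33.3% ± 1.62 in W and 47.0% ± 2.57 in Trim71KO.

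**Figure D5:**
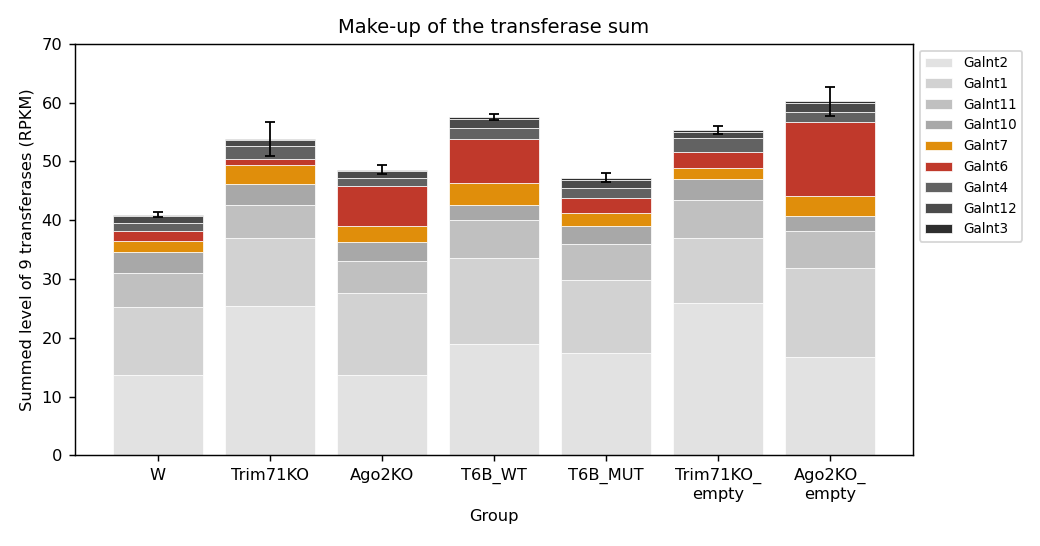
Stacked group means of the RPKM of the 9 transferases (vertical axis) in the 7 groups; error bars are the SD of the sum over 3 libraries. The red Galnt6 segment is a thin band in W and Trim71KO (4.17% and 1.99% of the sum) and widens to 14.2%, 12.9% and 20.9% in Ago2KO, T6B_WT and Ago2KO_empty.

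Several of the 10 genes share their locus with others, and whether counting was stranded is not given in the sources used here. Galnt2 (chr8:124231391-124345724, plus strand) lies almost wholly within Gm20388, an annotated transcript unit that also spans other genes, and the pair had nearly the same levels, 58.5 and 58.6 CPM in W, with the same log2 fold change of 0.89 in Trim71KO. The 2 rows thus cannot be read as separate genes. Galnt4 (chr10:99108159-99113247, plus strand) lies inside Poc1b, a centriole gene on the same strand, which rose by log2 0.47 (SE 0.09) in Trim71KO, where Galnt4 rose by 0.78. Galnt6 overlaps an antisense RNA, Galnt6os, on the plus strand, for which no row was used here. Galnt7 (chr8:57523828-57653032) and Galnt1 overlap the pseudogenes Gm10284 and Gm7701, at 0.237 and 3.58 CPM in W. The values of genes that share a locus are therefore uncertain.

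Of 10 further Galnt genes listed, 5 were in the table. With T6B_WT 0 of these 5 were called by edgeR, where 9.29% of all genes were called higher and 6.69% lower. Galnt9, a transferase best known from brain, was the most abundant of them in W by CPM, at 2.09 ± 0.574, and had a log2 difference of 0.43 with T6B_WT (adjusted p = 0.0512). It fell by log2 0.68 (SE 0.20) in Trim71KO and by 1.95 (SE 0.18) in Trim71KO_empty, where it was at 0.688 ± 0.133 CPM against 2.68 ± 0.101 in T6B_MUT.

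The core enzymes did not move with T6B_WT in a way that passed the test: 0 of 6 were called, where 9.29% of all genes were called higher and 6.69% lower, with a median log2 fold change of −0.06. C1galt1c1, the chaperone that C1galt1 needs to fold, had a log2 fold change of 0.10 (SE 0.10). In Trim71KO, 2 of 6 rose and 2 fell, where 16.9% of all genes were called higher and 15.6% lower. B3gnt3, which extends core 1, rose by log2 1.62 (SE 0.13) beside C1galt1, and Gcnt1, which makes the core 2 branch, fell by 0.45 (SE 0.06). C1galt1c1 was at 6.08 ± 0.616 CPM in Trim71KO and 6.15 ± 0.608 in W, so only C1galt1 of this enzyme and chaperone pair passed the test there.

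Among 5 sialyltransferases tested, St3gal4, which caps galactose, fell with T6B_WT by log2 0.60 (SE 0.12) and St6galnac3 rose by 0.43 (SE 0.12). In Trim71KO both rose, by 1.02 (SE 0.10) and 0.63 (SE 0.13). By group, St3gal4 was at 6.41 ± 0.466 CPM in W, 13.0 ± 0.665 in Trim71KO and 4.19 ± 0.637 in Ago2KO. It was at 7.34 ± 0.205 in T6B_MUT, 4.85 ± 0.243 in T6B_WT, 9.35 ± 0.867 in Trim71KO_empty and 5.01 ± 0.863 in Ago2KO_empty. Ago2KO, T6B_WT and Ago2KO_empty thus had the lowest St3gal4 means of the 7 groups.

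Of 12 genes that supply the nucleotide sugars, 1 was called with T6B_WT, where 9.29% of all genes were called higher and 6.69% lower. It was Gne, the first enzyme of sialic acid synthesis, which rose by log2 0.41 (SE 0.07). In Trim71KO, Pgm3 rose by 0.26 (SE 0.06) and Nans and Gnpnat1 fell by 0.26 and 0.20 (SE 0.06 each). In Trim71KO_empty only Nans of these was called, with −0.41 (SE 0.08), and Pgm3 and Gnpnat1 differed by −0.05 and 0.01. Of 20 mucins and mucin-like proteins, 11 were in the table and 10 were tested in Experiment 2. Tmem123, a mucin-like membrane protein, rose with T6B_WT by log2 0.61 (SE 0.07), from 24.1 ± 1.63 to 36.9 ± 2.15 CPM, and Spn (CD43) fell by 0.39 (SE 0.12). The secreted gel-forming mucins were not among the genes tested, and Muc1 was at 0.599 to 0.957 CPM on average in the 7 groups. In Trim71KO, 3 of 8 tested rose (16.9% of all genes), Cd34 among them (log2 0.76, SE 0.09), and 4 fell (15.6% of all genes), led by Spn (−0.99, SE 0.09) and Podxl (−0.64, SE 0.08). Fn1, the fibronectin gene, rose by log2 0.42 (SE 0.08) in Trim71KO, where Galnt6 fell. In Trim71KO_empty neither gene was called, with −0.09 (SE 0.32) for Fn1 and 0.18 (SE 0.09) for Galnt6. Fn1 was also not called with T6B_WT (0.19, SE 0.32) or in Ago2KO (0.19, SE 0.08).

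Genes that start other kinds of O-glycans were counted for contrast. In Trim71KO 8 of 13 rose and 0 fell, where 16.9% of all genes were called higher and 15.6% lower, with a median log2 fold change of 0.26, led by Eogt (0.81, SE 0.11), which adds extracellular O-GlcNAc, and by Pomt2 (0.62, SE 0.06) and Xylt1 (0.62, SE 0.11), which start O-mannose and glycosaminoglycan chains. In Trim71KO_empty against T6B_MUT only 4 of the 13 rose and 1 fell, with a median of 0.08. There 14.4% of all genes were called higher and 13.4% lower. Pomt2 (0.77, SE 0.08) and Eogt (0.35, SE 0.11) were called higher again, and Xylt1 (0.30, SE 0.16) was not called. With T6B_WT 2 of 13 rose (9.29% of all genes), Eogt by 0.57 (SE 0.10) and Xylt2 by 0.32 (SE 0.07), and Pomt1 fell by 0.31 (SE 0.08; 6.69% of all genes fell).

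Neighbouring genes were examined beside Galnt6. Of 13 tested genes within 250 kb of it, 8 rose with T6B_WT and 0 fell, with a median log2 fold change of 0.42, while the median of 802 genes of chromosome 15 was −0.02 and 9.29% of all genes were called higher. Among them Pou6f1, a transcription factor gene, rose by 0.75 (SE 0.11), Dazap2 by 0.51 (SE 0.07) and Tfcp2 by 0.51 (SE 0.08). The neighbours closest to Galnt6 were not called: for Cela1, an elastase gene, the log2 difference was 0.16 (SE 0.20), and for Bin2, on the same side, −0.17 (SE 0.09). Slc4a8, the nearest tested gene on the other side, rose by 0.42 (SE 0.10). Against Trim71KO_empty, 5 of the 13 were higher in T6B_WT and 0 lower, where 17.3% of all genes were called higher. Letmd1 (−0.08), Csrnp2 (−0.07) and 5330439K02Rik (0.94, SE 0.45) were not called there, and Letmd1, Csrnp2 and Tfcp2 were also higher in Trim71KO_empty than in T6B_MUT, by 0.56, 0.35 and 0.24. In Ago2KO 6 of the 13 were higher (10.2% of all genes) and in Ago2KO_empty 7 (16.4%), with 0 lower in either. In Trim71KO 1 of the 13 rose (16.9% of all genes) and 4 fell (15.6%), Bin2 by 0.80 (SE 0.08) and Pou6f1 by 0.78 (SE 0.11). With T6B_WT the log2 fold changes of the 13 neighbours ran from −0.17 to 1.61, beside 1.60 for Galnt6. The highest was that of 5330439K02Rik, a noncoding RNA at 0.123 and 0.390 CPM in T6B_MUT and T6B_WT (log2 1.61, SE 0.46).

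The genes whose levels followed Galnt6 most closely were found by Pearson correlation of log2 CPM over the 21 libraries, after each experiment's mean was removed, among 14253 genes. The libraries share groups, controls and experiments and include those of the contrasts on which Galnt6 was chosen, so the values describe likeness only. The 8 nearest were Mmrn2 (r = 0.993), Scpep1 (0.977), Zfp607b (0.974), Btbd10 (0.971), Prkx (0.970), Tmem64 (0.969), Ddhd2 (0.965) and Crebl2 (0.964). Mmrn2, which encodes an extracellular matrix protein of blood vessels, was also first by Spearman rank correlation (rho = 0.984), and it was the only one of the 8 that stayed among the first 8. Mmrn2 was at 16.2 CPM in W, 11.6 in Trim71KO, 48.6 in Ago2KO, 76.2 in T6B_WT, 34.2 in T6B_MUT, 41.0 in Trim71KO_empty and 110 in Ago2KO_empty. Of the other transferases, Galnt1 was the most alike (r = 0.84, rank 404), and Galnt10, Galnt4 and Galnt2 had r of −0.65, −0.61 and −0.59. Galnt12 had r = 0.54 (rank 2302), Galnt7 0.48 (rank 2708) and Galnt11 −0.16. Galnt3 was below the level needed for this comparison and was not ranked.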

How the data were processed

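RNA-seq was measured in 21 libraries in 7 groups of 3, which the series' design text calls biological replicates. The authors deposited raw read counts, as whole numbers, and RPKM values per gene and library in 1 table of 22512 genes, with gene lengths in a column named for QuasR, per the file headers. The submitters' processing notes name bcl2fastq 2.17, STAR 2.7.3a and the builds GRCm38 and mm10. The annotation, filters and strand setting are not given in the sources used here. The lowest row total was 17 counts. Where the table gave no symbol (4789 rows), Ensembl IDs were matched to GENCODE M21, which held 22480 of the IDs, and coordinates and 3′ UTRs come from it. The deposited RPKM were scaled to 0.962 to 1.045 times the column totals and were used as an alternative.

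The counts were tested with edgeR 4.0.16 (R 4.3.3) by the quasi-likelihood F test after TMM scaling (factors 0.956 to 1.028) and filterByExpr with a minimum count of 10. P-values were adjusted by Benjamini-Hochberg over all genes tested. The 9 libraries of Experiment 1 and the 12 of Experiment 2 were fitted separately, and all 21 for the difference between experiments. CPM and RPKM shown use TMM-scaled library sizes. No pair of replicates agreed within sampling noise (chi-square per degree of freedom 3.74 to 86.4 in 21 pairs). The fits were tested on simulated counts. Alternatives were DESeq2 1.42.0, upper-quartile scaling, other filters, fits of only the groups compared, a replicate block, each library left out, deposited RPKM, the longest 3′ UTR, Spearman correlation and added seed families.

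The genes, lists and tests were chosen with earlier results of these data known. Genes named are the 10 genes, up to 3 called genes per list and comparison with the largest change and a mean log2 CPM of at least 1, tested genes within 250 kb of Galnt6, and the 8 most correlated genes (log2 CPM with prior count 2). C1galt1c1, Muc1, Fn1, Usp17la, Tcstv1 and the genes that overlap one of the 10 were named after their values were seen. Proteins were not analysed here.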

Additional observations from a re-analysis of the deposited data

Results flagged for a closer look

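The effect of the genotype labelled Trim71-/- differed between the experiments for Galnt2, Galnt3, Galnt7 and C1galt1, by the test of the difference itself in edgeR. The difference, Trim71KO over W minus Trim71KO_empty over T6B_MUT, was 1.04 on the log2 scale for Galnt7 (SE 0.13, adjusted p = 3.46e-06), made of 0.76 and −0.28. For Galnt6 it was −0.85 (SE 0.14), made of −0.68 and 0.18. Its controls, W and T6B_MUT, are also those of the contrasts on which Galnt6 was chosen, so no p is given and the value is a description. For Galnt3 it was −1.20 (SE 0.27, adjusted p = 0.00421), made of −0.90 and 0.30, on 21 to 95 counts per library. For C1galt1 it was 0.62 (SE 0.12, adjusted p = 0.00131) and for Galnt2 0.32 (SE 0.10, adjusted p = 0.0332), and both genes passed as higher in each experiment. The Galnt2 difference was lost in 9 of the 12 fits that left out 1 library. C1galt1 was at 9.25 ± 0.656 CPM in W and 20.03 ± 1.94 in T6B_MUT (n = 3 each), so the controls of the experiments themselves stood apart for this gene.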

How the results depend on the processing

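The counts of genes called were recomputed under every alternative. All stayed within 1.5 times the main count except Trim71KO_empty against T6B_MUT, where the main count of 6 became 2 to 4 when 1 library was left out. It was 2 without T6B_MUT replicate 1, 3 without T6B_MUT replicate 2 and 2 without Trim71KO_empty replicate 1, and in these fits fewer libraries entered the test. No fold change of the 10 genes reversed once called. Galnt6 kept its direction and its side of the threshold in the 12 alternatives of each comparison between groups in which it was tested: with T6B_WT against T6B_MUT its log2 fold change was 1.55 to 1.66 (adjusted p at most 5.74e-08), in Trim71KO −0.76 to −0.61 (at most 0.000802), and against Trim71KO_empty 1.38 to 1.51. W and T6B_MUT are also the controls of the contrasts that chose Galnt6, so its adjusted p against them are not free of that choice. Galnt7 with T6B_WT was 0.70 to 0.84. In the difference between experiments, Galnt4 passed only without Trim71KO_empty replicate 3 (adjusted p = 0.0355) and Galnt10 only without W replicate 1 (0.0489). Deposited RPKM moved 6 of 70 group means by more than their SD.

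Replicate numbers did not pair libraries: 10 of 27 same-numbered pairs had a correlation of deviations over 0.1 (range −0.58 to 0.58), and 7 correlated best with their own number. With a replicate block the counts were 6 in Trim71KO, 3 with T6B_WT and 5 in Trim71KO_empty (C1galt1 had adjusted p = 0.0507). They were 9 for T6B_WT against Trim71KO_empty and 5, with Galnt6 counted, for the difference between experiments. Galnt3 rests on 16 to 95 counts per library, which limits its precision more than that of the other 9 genes.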
